A study of Mus musculus with 13 samples.

Results

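The 41 genes described here encode the peroxisome's assembly machinery and much of its enzyme content. They comprise 12 peroxins, 11 genes of beta-oxidation, 3 of ether lipid synthesis and 15 with other peroxisomal roles. They were taken by gene symbol from the 19934 genes with a probe set of their own. The set was chosen by gene function with log2 levels of these arrays already in view, so counts over it are a description and support nothing by themselves. Each of the 41 had 1 probe set, and all 41 passed the filter on low signal, as did 15875 genes in all. The signal stood above the filter level on all 13 arrays, except for Acaa1b, which did so on 12.

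The samples were epithelium of mouse esophagus and forestomach, peeled from the underlying tissue with dispase. All animals carried the L2-Cre transgene on a mixed C57Bl/6 and 129 background, and they differed in the alleles of p120 (gene Ctnnd1), the catenin that binds the inner end of cadherins. Controls were Cre/p120 +/+ and the others Cre/p120 flox/flox. The 3 control animals, numbered 214, 216 and 217, gave both tissues. The flox/flox esophagus came from animals 193, 307, 313 and 335, and masses of flox/flox forestomach came from animals 412, 426 and 510. The labels state no ages, and the L2 promoter is known for activity in stratified squamous epithelium. No flox/flox forestomach without a mass was measured, so genotype and mass growth cannot be told apart.

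Peroxisomes are single-membrane organelles that shorten very long and branched fatty acids, start ether lipid synthesis and break down hydrogen peroxide. Their matrix proteins are made in the cytosol and enter folded. Soluble receptors carry them to a docking complex, and a ubiquitin ligase and an ATPase return the receptors to the cytosol. A separate route inserts membrane proteins, and existing organelles elongate and divide. In rodents, fatty acid ligands of the nuclear receptor PPAR alpha raise many peroxisomal beta-oxidation genes by way of a direct repeat of a short DNA element.

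That element was searched for in RefSeq promoter windows of GRCm38.p6, from 250 bases before to 50 bases after each start site, which 33 of the 41 genes had. The pattern was 2 copies of the hexamer AGGTCA with 1 base between them, on either strand, with at most 2 mismatches over its 12 fixed positions. It was present in 2 of 33 genes (6.06%), against 475 of 12509 tested genes (3.80%). These shares are a description, and an absent match says only that these letters are not in the window. The 250 bases before the start are shown for both genes with a match, in capitals, and for Acaa1b, a peroxisomal thiolase with one of the widest differences among these genes and no match. The Acot4 window is chr12:84038129-84038378 on the plus strand, with the match on the minus strand. The Cat window is chr2:103485154-103485403 and that of Acaa1b chr9:119157094-119157343, both on the minus strand.
Acot4: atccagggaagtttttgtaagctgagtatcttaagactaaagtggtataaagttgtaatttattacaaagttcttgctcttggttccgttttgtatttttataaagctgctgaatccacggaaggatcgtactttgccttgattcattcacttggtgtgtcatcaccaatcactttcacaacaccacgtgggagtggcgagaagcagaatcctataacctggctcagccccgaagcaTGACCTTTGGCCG
Cat: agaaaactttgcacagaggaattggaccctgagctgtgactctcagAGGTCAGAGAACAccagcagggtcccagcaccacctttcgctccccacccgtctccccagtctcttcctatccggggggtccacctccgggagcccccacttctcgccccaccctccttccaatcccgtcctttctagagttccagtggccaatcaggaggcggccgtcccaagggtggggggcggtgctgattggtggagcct
Acaa1b: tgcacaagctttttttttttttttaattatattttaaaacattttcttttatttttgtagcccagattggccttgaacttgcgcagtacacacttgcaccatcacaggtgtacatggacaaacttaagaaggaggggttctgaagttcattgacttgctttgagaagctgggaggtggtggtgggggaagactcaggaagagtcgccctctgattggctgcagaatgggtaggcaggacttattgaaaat

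Array medians lay between 65.3 and 72.4 on the linear intensity scale. The deleted gene itself, Ctnnd1, read 10.40, 10.14 and 10.23 (log2 intensity) in control forestomach and 9.66, 9.91 and 9.51 in masses 412, 426 and 510. The change was -0.56 (SE 0.12, adjusted p = 0.0145), and in the esophagus it was -0.29 (SE 0.11, adjusted p = 0.637). Where its probes lie relative to the deleted exons is not given in the sources used here. Tissue markers set some libraries apart. The mean of 8 glandular stomach markers was 11.82 in mass 426 and 5.31 to 5.92 on the other 12 arrays. The mean of 11 skeletal muscle markers was 8.37 in control esophagus 214, 8.14 in flox/flox esophagus 307 and 9.61 in flox/flox esophagus 335, against 5.53 to 6.29 elsewhere. The same 3 arrays had fibroblast and matrix means of 10.89, 9.54 and 10.09, against 6.63 to 6.84 on the other esophagus arrays. Their endothelial means were 7.46, 6.89 and 7.54, against 4.998 to 5.35. The mean of 6 T and NK cell markers was 7.59 in flox/flox esophagus 193 and 5.436 to 6.175 on the other 12 arrays. Squamous markers were high in all 4 groups, with means from 11.64 to 12.11. In the masses their mean was 11.79 to 12.11, above the 11.64 to 11.71 of control forestomach. Of those 9 markers 2 rose (Dsg3 and Epcam) and 1 fell (Krt4), where 2.31% and 8.40% of all genes did. Because markers of this list moved both ways, their mean is no plain measure of squamous content. The mean of 7 fibroblast and matrix markers was 7.42 to 9.31 in the masses and 6.74 to 7.69 in control forestomach. For 7 endothelial markers the ranges were 6.40 to 7.65 and 5.37 to 6.16, and for 7 macrophage and leukocyte markers 6.87 to 7.66 and 6.26 to 6.46. No single marker of those 3 lists was called between masses and control forestomach, while Cd14 was higher in control forestomach than in control esophagus (0.61 (SE 0.15, adjusted p = 0.0328)). The part of these cells in the results below was not tested beyond the alternatives named there.

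The widest median change of the 4 comparisons was that between masses and control forestomach. Of the 41 genes 23 fell in the masses and 0 rose, by limma's moderated test with Benjamini-Hochberg adjustment over all 15875 genes at 0.05. Among all genes tested, 8.40% fell and 2.31% rose. Without adjustment, 28 were lower and 1 higher at p under 0.05, against 16.2% and 8.64% of all genes. The median change was -0.50 on the log2 scale, against 0.01 over all genes, and single genes ranged from -1.58 to 0.43. The masses lay below all control forestomach samples for 27 of the 41 genes, while 17.5% of all genes did so. Peroxins fell in 8 of 12 cases (median -0.48), beta-oxidation genes in 6 of 11 (median -0.80), the other peroxisomal genes in 9 of 15 (median -0.54), and ether lipid genes in 0 of 3 (median 0.0027). In bulk tissue, fewer cells of a type and less RNA per cell cannot be told apart.

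**Figure D1:**
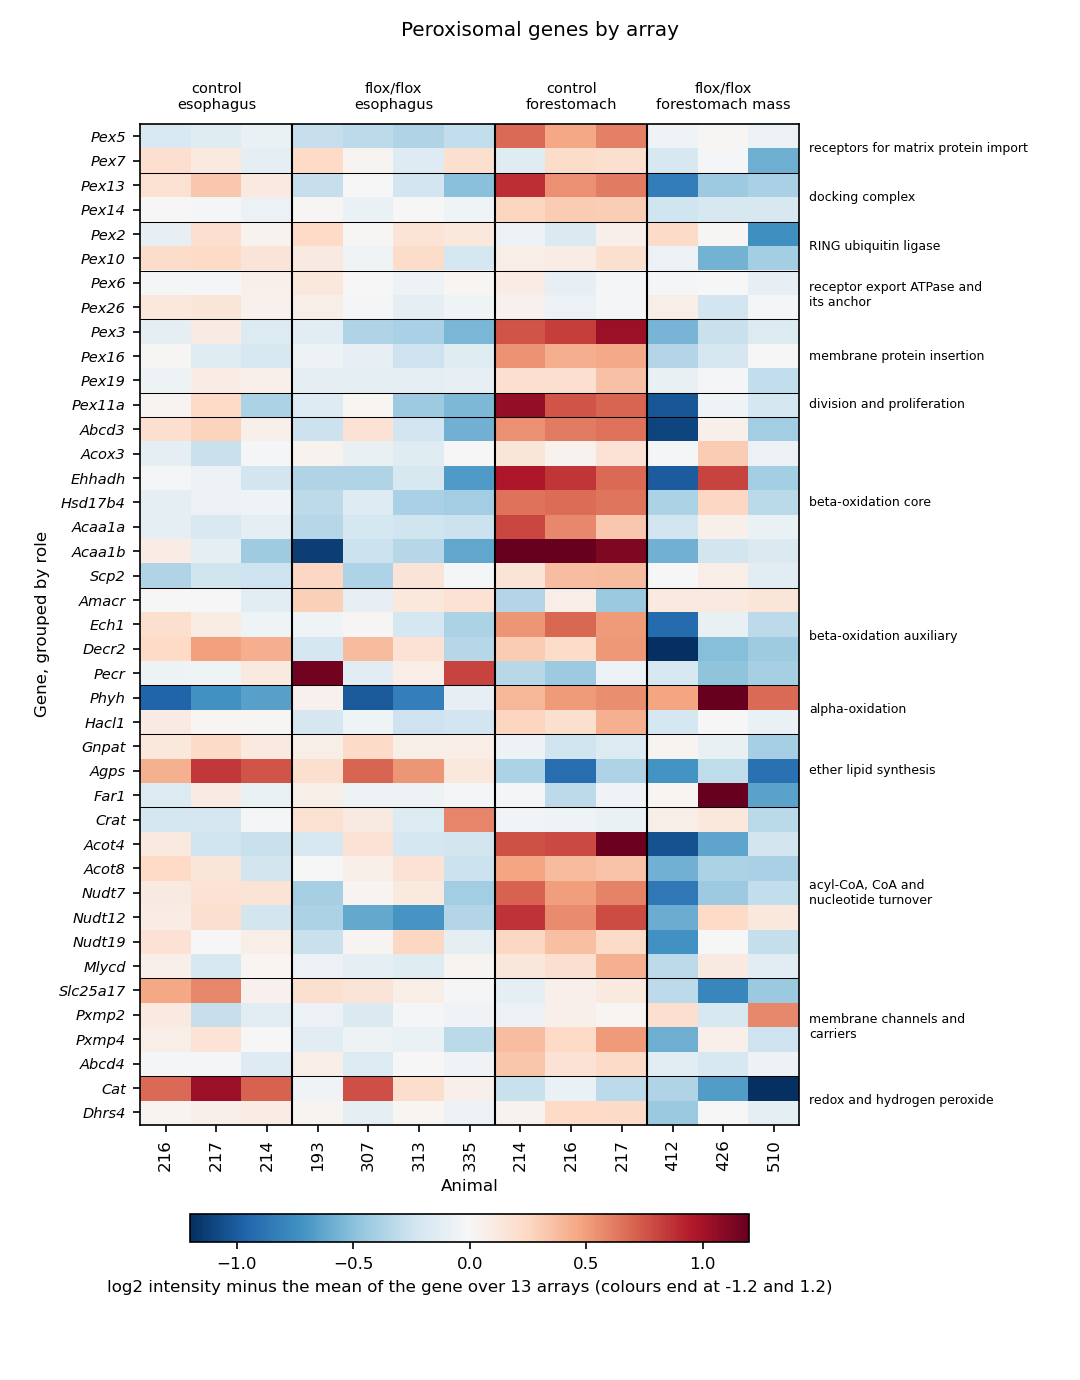
Level of each of the 41 genes on each of the 13 arrays, as log2 intensity minus the mean of that gene over all arrays, with genes in rows grouped by role and animals in columns. The control forestomach columns are red for most rows. The columns of masses 412 and 510 are mostly blue, and that of mass 426 is mixed.

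Taken over the 41 genes, the mean log2 intensity was 8.34, 8.30 and 8.36 in control forestomach. It was 7.66 in mass 412, 7.98 in mass 426 and 7.77 in mass 510. Control esophagus lay below control forestomach, with 8.003 to 8.10, and flox/flox esophagus had 7.88 to 7.98. Control forestomach had the highest mean of the 4 groups for 26 of the 41 genes, against 27.9% of all genes, and the masses the lowest for 25, against 29.6%. For 20 of the 41 genes the 3 control forestomach arrays stood above all 10 others, and 6.87% of all genes had that arrangement. The masses differed among themselves: 412 was the lowest of the 3 for 18 of the 23 genes that fell, and 426 the highest for 12. How many of all genes had this order was not counted. The median SD of the 41 genes was 0.24 within the masses and 0.11 within control forestomach, much as over all genes (0.25 and 0.11).

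Among the import receptors, Pex5 carries proteins with the carboxy-terminal targeting signal. Pex5 read 8.28, 8.06 and 8.20 in control forestomach and 7.55, 7.61 and 7.52 in the masses, with no overlap. It fell by 0.62 (SE 0.083, adjusted p = 0.00201). The other receptor, Pex7, serves the amino-terminal signal, and its change of -0.35 (SE 0.17, adjusted p = 0.215) was not called.

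The docking complex receives loaded receptors at the membrane. Its component Pex13 stood at 9.27, 8.93 and 9.01 in control forestomach and at 7.551, 7.948 and 7.996 in masses 412, 426 and 510, and every mass was below every control. Pex13 fell by 1.24 (SE 0.15, adjusted p = 0.00128), which is 2.36-fold. Pex14, its partner, was 8.40, 8.44 and 8.44 in controls and 7.90, 7.94 and 7.95 in masses, both groups tight and apart. The drop in Pex14 was smaller, at 0.50 (SE 0.074, adjusted p = 0.00256).

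Downstream of docking, calls were few. Pex10, a RING subunit of the ligase that marks the receptor for recycling, measured 6.72, 6.73 and 6.83 in control forestomach and 6.57, 6.07 and 6.23 in masses, with mass 426 the lowest. It fell by 0.47 (SE 0.14, adjusted p = 0.0472), a call that was lost without 10 of the 13 arrays in turn. Pex2, another RING subunit, differed by -0.11 (SE 0.20, adjusted p = 0.807). Pex6, the export ATPase, and Pex26, its membrane anchor, differed by -0.027 and -0.047 (adjusted p = 0.894 and 0.826), so none of these was called.

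All 3 genes of membrane protein insertion fell, where 8.40% of all genes did. Pex3, the membrane anchor for incoming membrane proteins, was 9.29, 9.37 and 9.56 in control forestomach and 7.98, 8.28 and 8.37 in the masses. Pex3 fell by 1.20 (SE 0.14, adjusted p = 0.000802), or 2.29-fold, and no mass reached the controls. Pex16, which helps to place Pex3, read 8.68, 8.57 and 8.59 against 7.78, 7.93 and 8.13, again without overlap. Its decline was 0.66 (SE 0.11, adjusted p = 0.00355). Pex19, the soluble chaperone of this route, read 8.18, 8.18 and 8.33 against 7.89, 7.96 and 7.68. Pex19 fell by 0.39 (SE 0.094, adjusted p = 0.0223), and its adjusted p was 0.058, 0.0544 and 0.0992 without control forestomach 214, 216 and 217.

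Pex11a, which elongates the membrane before division, was 8.83, 8.53 and 8.48 in control forestomach and 6.75, 7.73 and 7.57 in the masses. Mass 412 was far below masses 426 and 510, and all 3 lay below the controls. Pex11a fell by 1.26 (SE 0.25, adjusted p = 0.00906), or 2.40-fold.

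**Figure D2:**
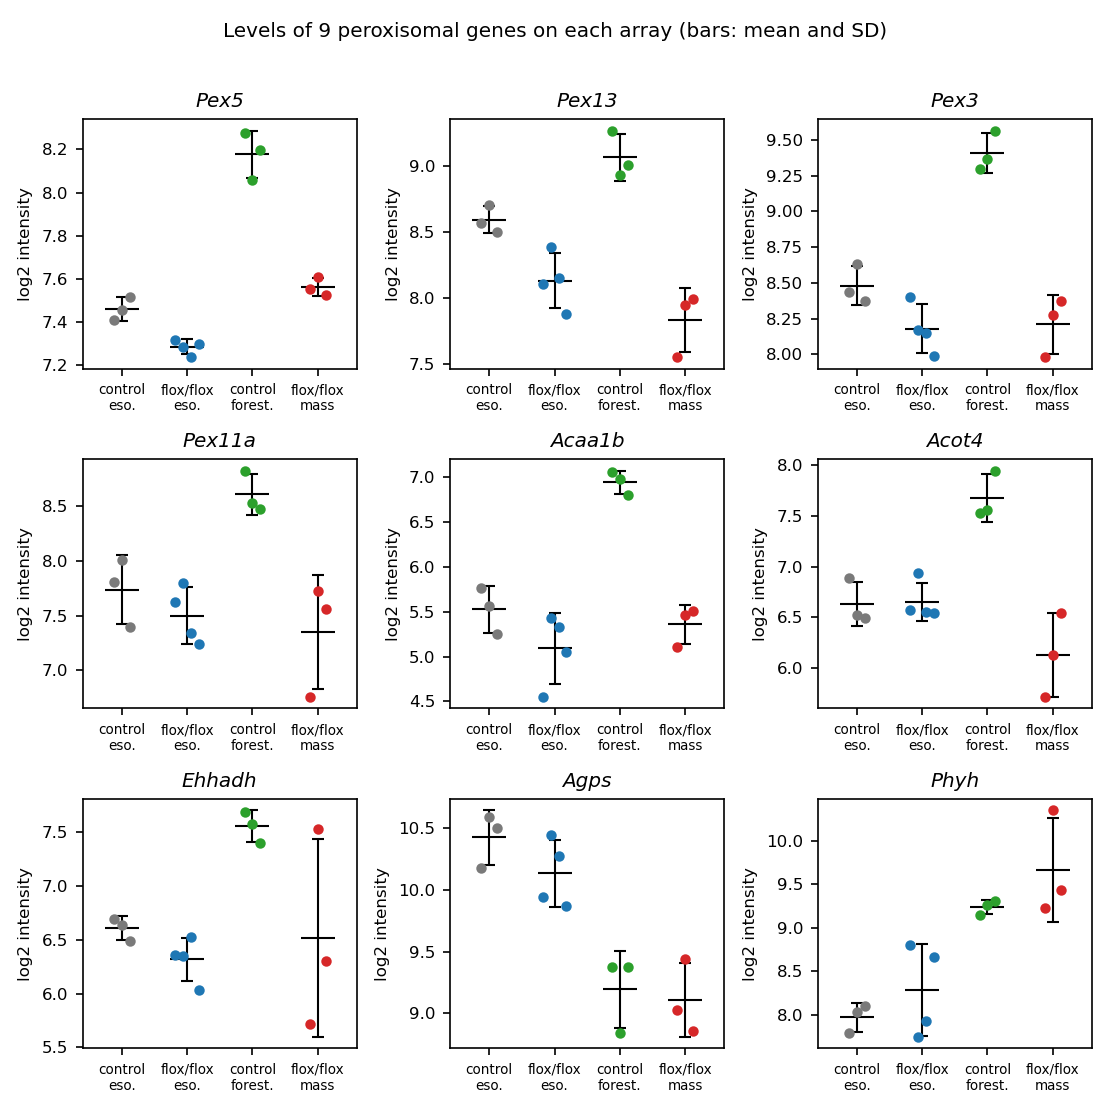
Log2 intensity of 9 peroxisomal genes on each array, by group, with points for animals and bars for the mean and SD (n = 3, 4, 3 and 3). Pex5, Pex13, Pex3, Pex11a, Acaa1b and Acot4 are highest in control forestomach with no mass reaching it, Ehhadh overlaps through mass 426, and Agps and Phyh separate the tissues.

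In beta-oxidation, 4 of the 7 core genes fell, against 8.40% of all genes. Both thiolases, which release acetyl-CoA in the last step, were among them. Acaa1b stood at 7.05, 6.97 and 6.80 in control forestomach and 5.11, 5.46 and 5.51 in the masses. It fell by 1.58 (SE 0.22, adjusted p = 0.00202), the widest change of the 41 genes. The masses lay close to the filter level of log2 5 for Acaa1b, as did both esophagus groups. Acaa1a read 9.13, 8.91 and 8.66 against 8.11, 8.39 and 8.26, and it fell by 0.65 (SE 0.12, adjusted p = 0.00676). The pair are close paralogs and whether their probes can tell them apart was not tested.

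Hsd17b4, the bifunctional enzyme for branched and very long chains, was 10.38, 10.41 and 10.38 in control forestomach. In the masses it was 9.36, 9.99 and 9.41, with mass 426 nearest to the controls. Hsd17b4 fell by 0.80 (SE 0.15, adjusted p = 0.00621). Abcd3, the transporter that brings acyl-CoA across the membrane, fell by 1.09 (SE 0.25, adjusted p = 0.0168). Acox3, an oxidase for branched chains, and Scp2, a thiolase and lipid carrier, were not called, with -0.049 and -0.32 (adjusted p = 0.853 and 0.201).

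Ehhadh, the bifunctional enzyme classically induced through PPAR alpha, had the widest change that was not called. It was 7.69, 7.58 and 7.40 in control forestomach and 5.72, 7.53 and 6.31 in masses 412, 426 and 510. Mass 426 lay within the controls, whereas the other masses lay more than 1 unit below them. The change was -1.04 (SE 0.33, adjusted p = 0.0716). Without mass 426, the one with high glandular stomach markers, Ehhadh fell, with a change of -1.54 (SE 0.18, adjusted p = 0.000918). The part of glandular RNA in this value was not tested.

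Of the auxiliary enzymes, which prepare unsaturated and branched chains, 2 of 4 fell, against 8.40% of all genes. Ech1, a dienoyl-CoA isomerase, read 11.04, 11.20 and 11.03 in control forestomach and 9.59, 10.42 and 10.20 in the masses, and mass 412 was the lowest. Ech1 fell by 1.02 (SE 0.18, adjusted p = 0.00606). Decr2, a dienoyl-CoA reductase, read 9.88, 9.79 and 10.09 against 8.30, 9.06 and 9.15, also with mass 412 lowest. Decr2 fell by 1.09 (SE 0.23, adjusted p = 0.0128). Amacr, a racemase, was higher in every mass than in any control, at 0.36 (SE 0.14, adjusted p = 0.12), which was not called, and Pecr, an enoyl-CoA reductase, differed by -0.077 (SE 0.27, adjusted p = 0.905).

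Alpha-oxidation removes a carbon from chains that beta-oxidation cannot start on. Its hydroxylase Phyh had a change of 0.43 (SE 0.31, adjusted p = 0.445), not called, and the highest array was mass 426. The lyase Hacl1 was 7.47, 7.41 and 7.64 in control forestomach and 7.01, 7.22 and 7.14 in masses. Hacl1 fell by 0.38 (SE 0.097, adjusted p = 0.0279).

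Ether lipid synthesis begins in the peroxisome with Gnpat and Agps, fed with fatty alcohol by Far1. None of these 3 genes was called in the masses. Their changes were 0.0027 (SE 0.11, adjusted p = 0.992) for Gnpat, -0.085 (SE 0.21, adjusted p = 0.86) for Agps and 0.33 (SE 0.33, adjusted p = 0.609) for Far1. The direction of Far1 rested on mass 426, without which the change was -0.18 (SE 0.18, adjusted p = 0.578).

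Genes of acyl-CoA and CoA turnover included some of the widest declines. In all, 5 of 7 fell, against 8.40% of all genes. Acot4, a thioesterase for short dicarboxylic acyl-CoA, was 7.52, 7.56 and 7.94 in control forestomach and 5.72, 6.13 and 6.54 in masses. Mass 412 was lowest and 510 highest, with every control above. Acot4 fell by 1.54 (SE 0.20, adjusted p = 0.00179), or 2.92-fold, though it lies beside close paralogs that its probes may share. Nudt7, which cleaves CoA, read 8.05, 7.84 and 7.94 against 6.49, 6.91 and 7.04, and it fell by 1.13 (SE 0.17, adjusted p = 0.0026). Acot8, a thioesterase of broad range, read 8.17, 8.07 and 8.04 against 7.12, 7.32 and 7.30. It fell by 0.85 (SE 0.14, adjusted p = 0.00398). Nudt12, which cleaves NADH, and Nudt19, another CoA hydrolase, fell by 0.82 and 0.62 (adjusted p = 0.0251 and 0.0414). The carnitine acetyltransferase Crat and the malonyl-CoA decarboxylase Mlycd were not called, at 0.016 and -0.37.

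Of the membrane carriers, 3 of 4 fell, against 8.40% of all genes. Pxmp4, a membrane protein of unsettled function, was 8.10, 7.96 and 8.24 in control forestomach and 7.14, 7.79 and 7.48 in masses. It fell by 0.63 (SE 0.15, adjusted p = 0.0197). Abcd4 is named with the peroxisomal transporters but is now best known for vitamin B12 export from lysosomes. Abcd4 was 7.99, 7.83 and 7.89 against 7.52, 7.46 and 7.59, with narrow groups, and it fell by 0.38 (SE 0.092, adjusted p = 0.0233). Slc25a17, a carrier for CoA and other cofactors, was 10.40, 10.58 and 10.64 against 10.20, 9.74 and 10.07. Slc25a17 fell by 0.54 (SE 0.15, adjusted p = 0.0438), with mass 426 lowest. The channel protein Pxmp2 was not called, at 0.19. Catalase (Cat), which breaks down hydrogen peroxide, and the carbonyl reductase Dhrs4 were below the controls in all masses at -0.70 (SE 0.30, adjusted p = 0.172) and -0.36 (SE 0.12, adjusted p = 0.0719), neither of them called.

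**Figure D3:**
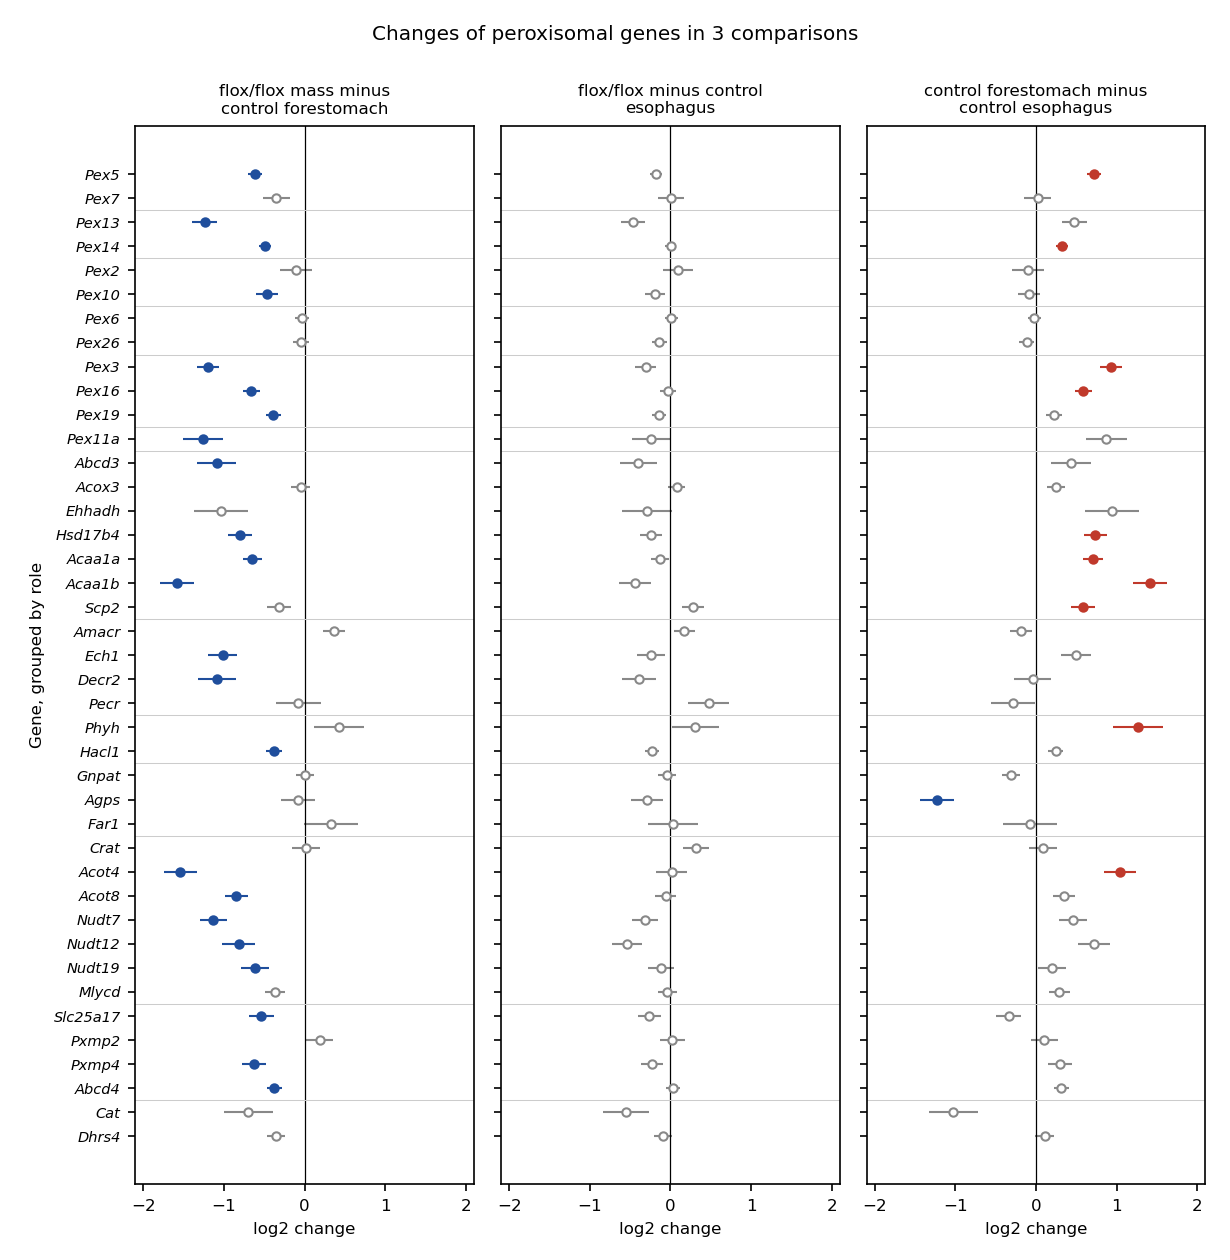
Change of each gene on the log2 scale in 3 comparisons, with points for the estimate, lines for 1 SE, and filled points where the adjusted p was under 0.05. Filled points to the left number 23 in the masses and 0 in the esophagus, and control forestomach has 10 filled points to the right of 0 and 1 to the left, Agps. Of all genes tested, 8.40% were called lower in the masses and 0.0126% were called in the esophagus. Between control tissues 3.51% were higher and 3.16% lower.

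The number of calls changed with the arrays and terms in the fit. With only the 6 forestomach arrays, 7 of the 41 genes fell (Acaa1b, Acot4, Acot8, Nudt7, Pex13, Pex3 and Pex5), and 2.18% of all genes. Leaving out 1 array at a time gave 13 to 23, with 13 without control forestomach 217 (4.15% of all genes) and 14 without 214 (3.77%). Without mass 426, 23 fell (8.08% of all genes), with Ehhadh, Mlycd and Dhrs4 gained and Pex10, Slc25a17 and Abcd4 lost. Decr2 was not called without control forestomach 217 (adjusted p = 0.0565), nor were Pex19 and Abcd3 without 214, 216 or 217. Hacl1, Nudt12 and Pxmp4 lost their calls without control forestomach 214 or 217 or mass 412, and Abcd4 without 214 or 217 or mass 426. Nudt19, Slc25a17 and Pex10 lost theirs without 10 of the 13 arrays. Of the 23 calls, 13 were kept without each single array, and Acot4, Pex13, Pex3 and Pex5 were kept under all 26 alternatives. Among these, Acot4 passed the stricter filter (log2 above 7) only through control forestomach, where it is high. Its call in that fit adds no support.

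With the mean of the squamous markers as a covariate, 8 of the 41 genes fell, and 1.98% of all genes. The changes themselves were smaller for part of the set. All 23 genes stayed below 0, but 9 came nearer to 0 by over 1.5 times. These were Pex11a (-0.81), Abcd3 (-0.36), Hsd17b4 (-0.36), Ech1 (-0.58), Decr2 (-0.58), Hacl1 (-0.24), Nudt12 (-0.54), Nudt19 (-0.16) and Pxmp4 (-0.33), with adjusted p from 0.184 to 0.724. Pex5 (-0.60), Pex14 (-0.52) and Pex3 (-1.18) were close to their values without the covariate, and Pex10 (-0.84) and Slc25a17 (-0.87) were further from 0. The median of the 41 genes was -0.36. The markers behind this covariate moved both ways, and what their mean stands for was not tested.

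In the esophagus, flox/flox samples against controls gave no called change. Of the 41 genes 0 were called by limma, where 0.0126% of all genes were. Without adjustment 5 had p under 0.05, all lower: Pex5 -0.18, Pex13 -0.46, Pex3 -0.30, Hacl1 -0.23 and Nudt12 -0.53, at adjusted p from 0.572 to 0.702. Over all genes 6.98% had an unadjusted p under 0.05, and 4.27% were lower. The median change was -0.13. Flox/flox esophagus lay below all control esophagus samples for 8 of the 41 genes, as it did for 6.10% of all genes. Pex5 was 7.52, 7.41 and 7.45 in controls and 7.32, 7.28, 7.24 and 7.30 in flox/flox animals, adjacent but not overlapping. Acaa1b was 5.25, 5.77 and 5.56 in controls against 4.55, 5.43, 5.33 and 5.05, with animal 193 lowest. The count stayed 0 under all 26 alternatives, including the fit without the 3 arrays high in muscle, fibroblast and endothelial markers. At most 0.0442% of all genes were called under any of them, so these counts could hardly differ from 0 and show no absence of change. Before adjustment, the number of the 41 genes at p under 0.05 ranged from 1 (without control esophagus 217) to 14 (with array weights).

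The difference between the changes in forestomach and esophagus was tested directly. Among all genes 0.139% were called for it, and of the 41 genes 0 were, with 16 at p under 0.05 before adjustment, all more negative in the forestomach. At that unadjusted threshold 10.5% of all genes differed, and 7.61% were more negative in the forestomach. The median difference was -0.40. Acot4 had a difference of -1.56 (SE 0.28, adjusted p = 0.057), Pex3 of -0.89 (SE 0.19, adjusted p = 0.0771), and Pex14 of -0.50 (SE 0.10, adjusted p = 0.0703). An effect called in the forestomach and not in the esophagus is therefore not shown to differ between tissues in this fit. Blocking on the animal, since the controls gave both tissues, called 3 genes (Acot4, Pex14 and Pex3) and 0.913% of all genes. Without mass 426, 3 were called (Acot4, Ehhadh and Hsd17b4), beside 0.878% of all genes. Without mass 510, 4 were (Acot4, Pex14, Pex16 and Pex3), beside 2.37% of all genes.

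Between control tissues, which share the 3 animals, 10 of the 41 genes were higher and 1 lower in forestomach. Over all genes 3.51% were higher and 3.16% lower. The median difference was 0.29, against 0.02 over all genes. Blocking on the animal gave 17 higher and 3 lower (Agps, Cat and Gnpat), and the shares of all genes rose as well, to 8.18% and 8.64%. The control forestomach arrays also enter the comparison with masses, so the 2 comparisons are not independent.

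Of the 41 genes, Pex5 had the smallest adjusted p between control tissues. It was 7.52, 7.41 and 7.45 in control esophagus and 8.28, 8.06 and 8.20 in control forestomach, a difference of 0.72 (SE 0.083, adjusted p = 0.000396). Pex3 read 8.38, 8.44 and 8.63 against 9.29, 9.37 and 9.56, higher by 0.93 (SE 0.14, adjusted p = 0.00196). For both, all 3 forestomach samples stood above all 3 esophagus samples. Acaa1b read 5.25, 5.77 and 5.56 against 7.05, 6.97 and 6.80, a difference of 1.41 (SE 0.22, adjusted p = 0.0023). Acaa1a read 8.21, 8.22 and 8.15 against 9.13, 8.91 and 8.66, with 0.70 (SE 0.12, adjusted p = 0.0045). The other 6 genes that were higher were Pex16 (0.58), Pex14 (0.32), Hsd17b4 (0.73), Scp2 (0.58), Acot4 (1.04) and Phyh (1.27). Leaving out 1 array at a time ended the calls of Pex14 and Phyh for 6 of the 13 arrays, each of the 6 control arrays, and that of Scp2 for these and flox/flox esophagus 335. Acot4 lost its call without control forestomach 217 (adjusted p = 0.0511), and 7 of the 11 calls were kept throughout. Without the 3 esophagus arrays high in muscle, fibroblast and endothelial markers, 1 of them a control, 5 genes were higher (1.78% of all genes). Without single arrays 6 to 15 were higher (1.89% to 4.87% of all genes).

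Agps was called lower in control forestomach, and no other gene of the 41 was in that fit. Of the 26 alternatives, 6 called 2 to 4 genes lower, and these called 5.03% to 12.5% of all genes lower. The count was 3 under the animal block (8.64% of all genes) and 4 with array weights (12.5%). Agps was 10.51, 10.18 and 10.60 in control esophagus and 9.37, 8.84 and 9.37 in control forestomach, with no overlap, and 9.94, 10.45, 10.28 and 9.87 in flox/flox esophagus. In the masses it was 9.03, 9.44 and 8.86, near the control forestomach. The difference in Agps between control tissues was -1.23 (SE 0.21, adjusted p = 0.00458). Phyh moved the other way between tissues, at 8.11, 7.79 and 8.03 against 9.15, 9.26 and 9.31, and its masses were 9.22, 10.35 and 9.43.

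Other genes of these pathways were counted from lists that hold none of the 41. In the masses 8.40% of all genes fell and 2.31% rose. Of 8 tested peroxins and division genes 1 fell, near the first share, namely Tmem135 at -0.69 (SE 0.14, adjusted p = 0.0105). Of 20 tested peroxisomal enzymes and transporters 5 fell and 1 rose. Lonp2, the matrix protease, fell by 0.96 (SE 0.15, adjusted p = 0.00286), and Far2, a fatty acyl-CoA reductase, fell by 2.86 (SE 0.62, adjusted p = 0.0141). Ephx2, an epoxide hydrolase, fell by 2.34 (SE 0.52, adjusted p = 0.0151). Eci2, an enoyl-CoA isomerase, fell by 0.60 (SE 0.14, adjusted p = 0.0206). The fifth was Acox2, a branched-chain oxidase, at -2.45 (SE 0.60, adjusted p = 0.0237). The gene that rose was Uox, urate oxidase, at 1.99 (SE 0.58, adjusted p = 0.0475).

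Mitochondria carry their own beta-oxidation for shorter chains, and there 11 of 18 tested genes fell and 0 rose, with a median of -0.67. The shares over all genes were 8.40% and 2.31%. Decr1, the mitochondrial dienoyl-CoA reductase, fell by 2.48 (SE 0.34, adjusted p = 0.0021). Hadhb, of the trifunctional protein, fell by 0.83 (SE 0.12, adjusted p = 0.00214). Hadh, a dehydrogenase, fell by 0.98 (SE 0.15, adjusted p = 0.00306), and Slc25a20, the carnitine carrier, fell by 1.35 (SE 0.22, adjusted p = 0.0037). Of 18 tested genes for PPAR receptors, partners and targets 3 fell, and the median of the 18 was -0.13. Ppara was at -1.57 (SE 0.29, adjusted p = 0.00723) and Vnn1 at -2.14 (SE 0.40, adjusted p = 0.00724). The third was Pdk4 at -3.01 (SE 0.58, adjusted p = 0.00828). In the esophagus and for the difference, 0 genes of these 4 lists were called, against 0.0126% and 0.139% of all genes. Between control tissues, 4 of the 18 mitochondrial genes were higher in forestomach and 1 lower, where 3.16% of all genes were lower. Of the 20 peroxisomal enzymes and transporters 2 were higher and 0 lower, and of the 8 peroxins and division genes 0 were called. In the PPAR list 3 of 18 were higher and 0 lower. Over all genes 3.51% were higher. Ppara was higher by 1.10 (SE 0.29, adjusted p = 0.0446), Vnn1 by 4.80 (SE 0.40, adjusted p = 3.42e-05) and Fabp4 by 4.15.

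**Figure D4:**
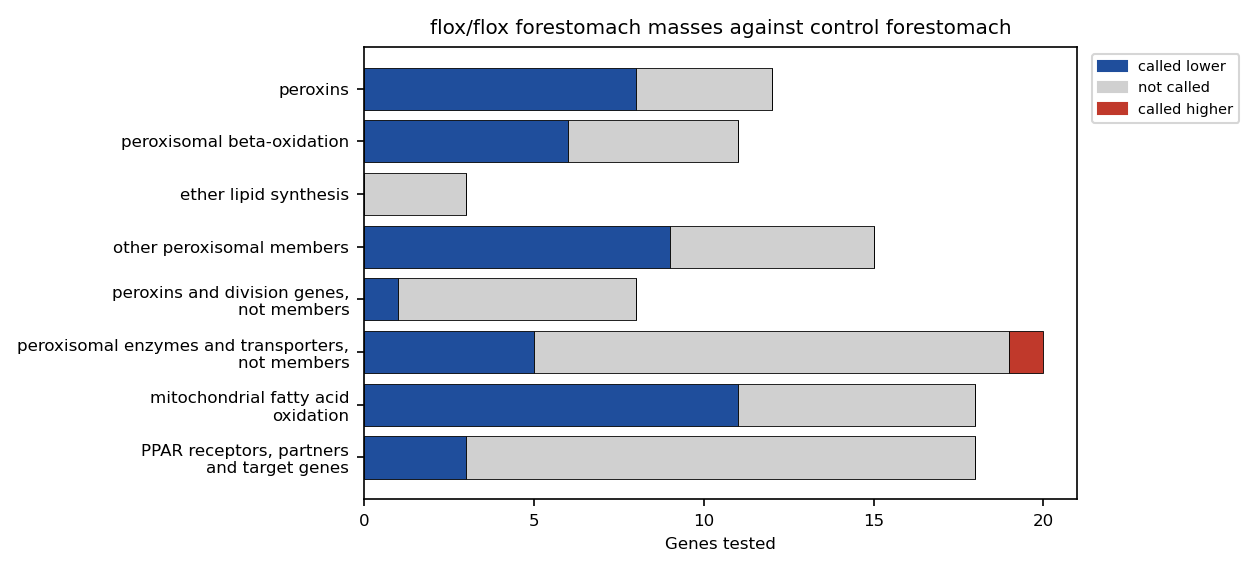
Number of tested genes that were called lower, not called or called higher in flox/flox forestomach masses against control forestomach, for the 4 classes of the 41 genes and 4 lists of related genes. Genes called lower number 8 of 12 peroxins, 6 of 11 in beta-oxidation, 9 of 15 other peroxisomal genes, 0 of 3 in ether lipid synthesis and 11 of 18 in mitochondrial fatty acid oxidation. Of all genes tested, 8.40% were called lower.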

How the data were processed

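Gene expression was measured on 13 mouse whole-transcript gene arrays. The authors deposited 1 intensity per probe set on a linear scale, summarised by GCRMA per the submitters' processing notes (version not given in the sources used here). GCRMA adjusts for probe base composition and normalizes between arrays, so shifts shared by all genes are removed. Of 34729 probe sets, 21633 name 1 gene, 1306 several and 11790 none. Intensities were floored at 1, which changed 0 values, and log2 transformed. The probe set with the highest mean was kept for each gene, and genes above log2 5 on at least 3 arrays were tested (15875).

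Group means were fitted with limma 3.58.1 in R 4.3.3 on all 13 arrays (9 residual degrees of freedom), with 4 contrasts and Benjamini-Hochberg adjustment at 0.05. The test was first checked on simulated data, with independent arrays and 1 spread per gene in all groups. That check does not cover the wider spread of the masses (median gene SD 0.25, against 0.11 in control forestomach). Nor does it cover animals that gave both tissues. Precision is limited by how few arrays there were. The labels do not say whether the animals of a group were littermates. The control animals pair the tissues: deviations of the same animal correlated at 0.398, 0.315 and 0.401.

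The members, gene lists and tests were chosen with earlier results of these data known. Values are given per array for up to 3 genes of each role with the smallest adjusted p in the masses, the 4 smallest between control tissues, and the widest change not called. From each other list up to 4 called genes are named by smallest adjusted p. Agps, Acox2 and Uox were named after their values were seen, as were other genes outside this rule.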

Additional observations from a re-analysis of the deposited data

Results flagged for a closer look

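Within the 4 flox/flox esophagus samples, 3 of the 41 genes had 1 sample apart from the rest by Dixon's criterion. It weighs the gap against the range, and chance meets it in about 1 of 20 groups. The count of 3 in 41 is near that rate. Pex19 was 7.885 in animal 335 and 7.861 to 7.864 in the others, a small gap flagged because the others nearly coincide. Gnpat was 9.530 in animal 307 and 9.366 to 9.375 in the others. Acot4 was 6.936 in animal 307 and 6.547 to 6.573 in the others. Animals 307 and 335 are also those with high skeletal muscle markers (means 8.14 and 9.61), and the part of muscle RNA in these values was not tested.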

How the results depend on the processing

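Of 41 genes, 23 fell in the masses. The share of all genes that fell was 8.40%. The count was 7 with only the forestomach arrays (2.18% of all genes) and 8 with the squamous marker mean as covariate (1.98%). It was 13 to 23 without single arrays (3.77% to 9.70% of all genes), and other alternatives gave 17 to 23 (5.54% to 16.9%). The count that rose was 0, and 0 to 1 without single arrays (Amacr, without control forestomach 216, where 0.816% of all genes rose). In the esophagus 0 was called under each alternative, where at most 0.0442% of all genes were. For the difference between tissues the count was 0 (0.139% of all genes). It was 1 with quantile normalization, median centring, array weights or an intensity trend (0.170% to 0.460% of all genes). A stricter filter gave 3 (1.10%), the animal as replicate block 3 (0.913%), and leaving out single arrays 0 to 4 (0.0633% to 2.37%). Acot4 was 1 of the 3 under the stricter filter, log2 above 7 on at least 3 arrays. It passed that filter only through control forestomach, where it is high, as did Nudt12. Calls of these 2 genes in that fit support nothing. Between control tissues, 10 were higher. Over all genes 3.51% were higher. The count for the 41 was 17 with the replicate block (8.18% of all genes), 17 with only the control arrays (7.44%) and 22 with array weights (11.5%). It was 5 without the 3 esophagus arrays with muscle markers (1.78%) and 6 to 15 without single arrays (1.89% to 4.87%). The count that was lower was 1, against 3.16% of all genes. It became 3 with the replicate block (8.64%) and 2 with only the control arrays (8.10%). It was 2 with the stricter filter (6.78%), 4 with array weights (12.5%) and 1 to 3 without single arrays (1.47% to 5.05%). The replicate block changed no other count. No direction of a called gene reversed. The causes were not tested. Pex10, Nudt19 and Slc25a17 lost their calls without 10 of 13 arrays. Arrays give no read depth, and the signal of Acaa1b was near the filter in the masses and the esophagus.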
